A study of Mus musculus with 12 samples.

Results

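Defense against reactive oxygen species and free metal ions was followed in the gastrocnemius muscle of mice that model facioscapulohumeral muscular dystrophy (FSHD), through 10 genes chosen by name from the 37748 in the count table. The metallothioneins Mt1 and Mt2 bind zinc and copper. Hmox1, Nqo1, Gclc, Gclm, Txnrd1 and Srxn1 are widely used readouts of the transcription factor NRF2, and Sod2 and Gpx1 encode antioxidant enzymes. All 10 members were among the 16679 genes that passed the filter on low counts.

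Poly(A) RNA was sequenced from 12 mice of 13 weeks, 3 in each of 4 groups. Controls were ACTA1-MCM/+, which carry MerCreMer (MCM), a tamoxifen-dependent Cre driven by the skeletal muscle promoter ACTA1. FLExD/+ mice carry the FLExDUX4 transgene at Rosa26, which needs Cre to be turned into its expressed orientation, and have no MCM. The moderate and severe models are bi-transgenic (FLExDUX4/+;MCM/+) and were taken 9 days after tamoxifen, given as 1 injection of 5 mg/kg in the moderate model and as 2 injections of 10 mg/kg on consecutive days in the severe model. Recombination in these models is mosaic, so a muscle mixes fibers with and without the expressed transgene. Per the labels, controls and FLExD/+ mice received no tamoxifen, so the transgene and the drug cannot be told apart in a comparison of either model with the controls. The 2 models also differ in the tamoxifen given, so the same holds for severe versus moderate. Reads of the DUX4 transgene are not analysed here. The labels describe the FLExD/+ libraries as mild pathology, although their genotype holds no Cre, and these mice are called FLExD/+ here. The treatment protocol in the labels also names the single 5 mg/kg dose the mild model, whereas each such library is labelled moderate, the name used here.

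In resting cells the adaptor KEAP1 hands NRF2 to a CUL3 ubiquitin ligase for degradation. Oxidants and electrophiles modify KEAP1, NRF2 then accumulates, pairs with a small MAF protein and binds antioxidant response elements (ARE) of genes for glutathione synthesis, thioredoxin reduction, quinone reduction and heme breakdown, while BACH1 represses the heme oxygenase gene. Metallothionein genes are read through metal response elements (MRE) bound by the zinc sensor MTF1, and glucocorticoids and STAT3 also raise them in many tissues. In muscle, superoxide comes mainly from mitochondria and from NADPH oxidases, including the phagocyte enzyme of invading leukocytes.

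The bases just upstream of the transcription start are shown for Mt1 and Mt2, the pair with the largest differences, and for Srxn1, which was called higher in moderate but not in severe mice relative to the bulk of genes. The windows are the 250 bases before the start in RefSeq on GRCm38.p6, 5′ to 3′ on the gene's strand, at chr8:94178839-94179088 (+) for Mt1, chr8:94172368-94172617 (+) for Mt2 and chr2:152105274-152105523 (+) for Srxn1. Capitals mark an MRE, searched as TGCACNC or TGCGCNC, or an ARE, searched as TGACNNNGC, on both strands. A variant of the ARE with G after TGA, TGAGNNNGC, was added after the sequences had been seen.
Mt1: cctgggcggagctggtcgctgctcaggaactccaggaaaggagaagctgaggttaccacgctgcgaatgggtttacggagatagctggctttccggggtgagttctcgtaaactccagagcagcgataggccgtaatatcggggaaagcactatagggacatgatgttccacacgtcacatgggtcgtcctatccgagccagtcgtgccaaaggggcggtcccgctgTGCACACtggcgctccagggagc
Mt2: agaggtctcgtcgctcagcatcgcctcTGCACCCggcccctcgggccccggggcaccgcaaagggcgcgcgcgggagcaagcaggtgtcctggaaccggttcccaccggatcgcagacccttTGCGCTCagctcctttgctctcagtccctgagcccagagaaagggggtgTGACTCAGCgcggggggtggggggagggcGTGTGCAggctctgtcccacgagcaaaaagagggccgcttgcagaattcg
Srxn1: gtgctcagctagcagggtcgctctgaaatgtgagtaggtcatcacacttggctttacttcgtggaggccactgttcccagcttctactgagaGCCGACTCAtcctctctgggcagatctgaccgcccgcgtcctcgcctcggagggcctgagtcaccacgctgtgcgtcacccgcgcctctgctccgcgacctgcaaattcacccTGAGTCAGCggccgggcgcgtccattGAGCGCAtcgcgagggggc
The Mt1 window held 1 MRE, at -23 to -17 from the start. Mt2 had 3 MRE, at -223 to -217, -128 to -122 and -50 to -44, and 1 ARE at -79 to -71. Srxn1 had no match to the first ARE word, 2 matches to the variant, at -158 to -150 and -45 to -37, and 1 MRE at -19 to -13. Of the 32851 RefSeq promoter windows of this length, 21.4% held an MRE, 10.2% the ARE word and 14.4% its variant, so a match is common and describes letters, not a bound site. Among the other members, Gclm had 1 ARE, which overlaps 1 of its 2 MRE matches, and Txnrd1 had 1 ARE before the second of its 3 listed starts. The windows of Nqo1, Sod2 and Gpx1 had no match to any of these words. RefSeq starts can differ from the GENCODE gene positions given below. The Sod2 window, chr17:13007589-13007838, lies inside the gene, which starts at 13006846 in GENCODE. The Gpx1 window, chr9:108338830-108339079, spans the GENCODE start at 108338903. The Mt1 window, which ends at 94179088, runs past the GENCODE start at 94179082. The Mt2 window ends at 94172617, before its GENCODE start at 94172664. Bases beyond a window were not searched, so matches there are not counted. The numbers of matches, also those of Mt1 and Mt2, therefore hold only for the RefSeq start used and do not rank the 2 genes by their MRE. Hmox1 and Gclc had no entry among the sequences, so 8 of the 10 members were searched.

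The libraries held between 23796902 and 29136403 counts, and levels are given as CPM, counts over library sizes that were adjusted by a TMM factor, or as TPM, transcripts scaled to a common sum, which also allow for gene length and are the only scale on which genes are compared here. TMM factors were 0.706 to 0.724 in controls, 0.708 to 0.760 in FLExD/+, 1.06 to 1.13 in the moderate and 1.69 to 1.87 in the severe mice, because the 20 most abundant genes took 57.7 to 58.5% of the counts in controls and 30.4 to 33.2% in the severe model. With TMM factors the median log2 fold change of all genes was 0.04 in moderate and 0.08 in severe versus control. Without such factors (library size alone) it was 0.65 and 1.39. Every fold change below is therefore relative to the bulk of genes, and members whose direction depends on this choice are named as such. The muscle fiber markers Acta1, Ckm, Mylpf, Myh4, Myh1 and Tnnt3 were all present, with a summed level of 124061 to 169848 CPM in controls, 55970 to 67623 CPM in moderate and 8666 to 15358 CPM in severe mice. Reads of Esr1, part of which is in the MCM transgene, were 422 to 819 CPM in controls, 27.5 to 37.9 CPM in FLExD/+, 95.9 to 124 CPM in moderate and 35.2 to 37.4 CPM in severe mice, so this readout separated the moderate but not the severe libraries from those without MCM, while Acta1, the mouse gene of the promoter that drives MCM, fell by 3.48 on the log2 scale in severe versus control (SE 0.18, adjusted p = 7.57e-10). In bulk muscle, fewer cells of a type and less RNA per cell cannot be told apart.

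A gene was called when the adjusted p of edgeR's quasi-likelihood test was under 0.05 and its log2 fold change was at least 0.5 in size. In FLExD/+ versus control, 0 of 10 members were called in either direction, beside 0.00600% of all genes tested (1 gene). At an unadjusted p under 0.05 in the same edgeR test, 638 of the 16679 genes passed in this comparison, none of them a member. Genes pass such a cut also where nothing differs, so these are not read as differences. DESeq2 called 7 genes. In moderate versus control, 6 members were higher, beside 24.4% of all genes, and 1 was lower, beside 17.0%. In severe versus control, 5 members were higher, beside 32.9% of all genes, and 1 was lower, beside 27.9%. Between the models, 1 member was higher in severe than in moderate, beside 17.6% of all genes, and 3 were lower, beside 18.8%. The 10 members were chosen with earlier results of these data known. These counts are therefore a description, and their distance from the shares of all genes was not tested. With median-of-ratios factors and in DESeq2, 5 rather than 6 members were higher in moderate mice. The median log2 fold change of the 10 members was 0.69 in moderate and 0.48 in severe versus control.

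**Figure D1:**
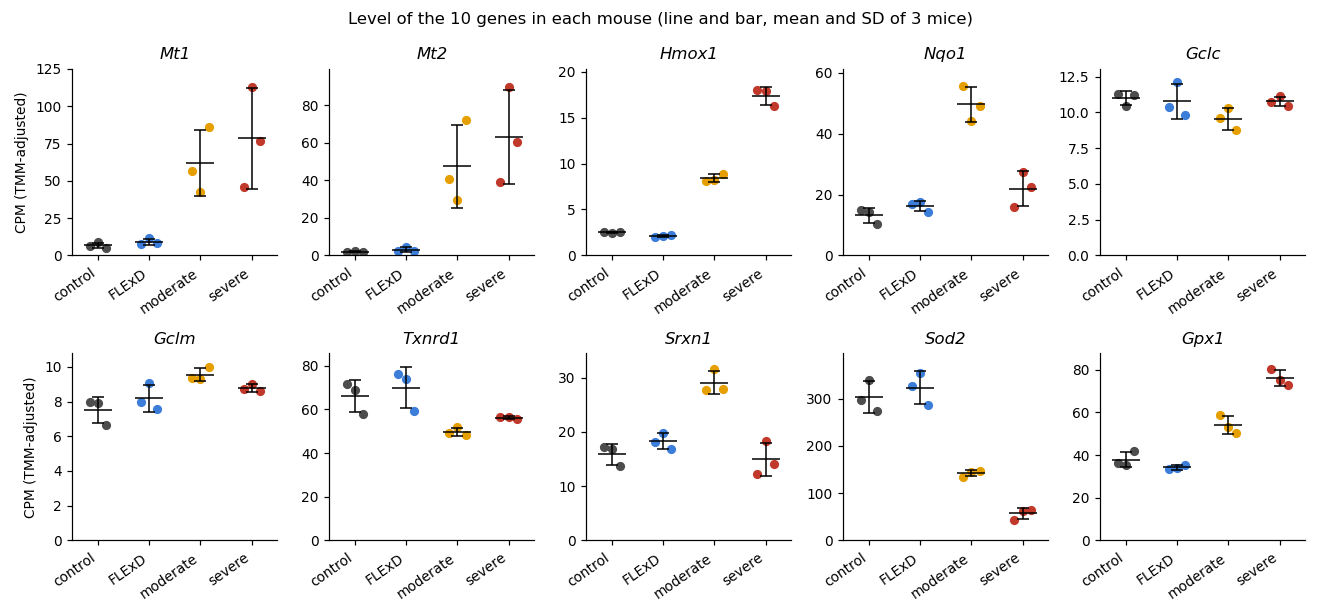
Level of each of the 10 genes in CPM (vertical axes, each from 0) in the 12 mice, grouped as control, FLExD/+, moderate and severe; points are mice, the line and bar give mean and SD of 3. Mt1, Mt2, Hmox1 and Gpx1 stand higher in both models, Nqo1 and Srxn1 are highest in the moderate model on this scale, and Sod2 falls from a mean of 304 CPM in controls to 56.9 CPM in severe mice.

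The metallothioneins showed the largest differences of the group. Mt1 (ENSMUSG00000031765, chr8:94179082-94180327, plus strand, GRCm38) encodes a small cysteine-rich protein that holds zinc and can trap oxidants. Its level was 5.26, 6.53 and 8.67 CPM in the controls, 7.28, 8.20 and 11.4 CPM in FLExD/+, 42.5, 56.7 and 85.9 CPM in moderate and 45.6, 76.8 and 113 CPM in severe mice. All 6 mice of the models lay above all 6 mice without recombination, while the 2 models overlapped. Mt1 was 9.04-fold higher in moderate (log2 3.18, SE 0.40, adjusted p = 9.79e-05) and 11.5-fold higher in severe mice than in controls (log2 3.52, SE 0.41, adjusted p = 2.47e-05).

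Mt2 (ENSMUSG00000031762, chr8:94172664-94173568, plus strand) is its neighbour and encodes a closely related protein. It measured 1.55, 1.75 and 2.07 CPM in the controls, 2.21, 2.36 and 4.66 CPM in FLExD/+, 29.6, 40.7 and 72.1 CPM in moderate and 39.1, 60.4 and 89.4 CPM in severe mice. Every mouse of the models was above every mouse without recombination, and again the models overlapped. The difference from controls was 26.3-fold in moderate (log2 4.72, SE 0.51, adjusted p = 3.69e-05) and 34.97-fold in severe mice (log2 5.13, SE 0.51, adjusted p = 9.55e-06). The annotation places the antisense gene Gm45774 over Mt2, and the sources used here do not give the strand setting of the counts, so reads of the pair could not be told apart.

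In FLExD/+ mice the CPM values of Mt2 lay just above those of the controls, with no overlap, while the TPM values overlapped, and the difference did not pass (log2 0.77, SE 0.59, adjusted p = 1.00), and that of Mt1 did not either (log2 0.39, SE 0.41, adjusted p = 1.00). Between severe and moderate the differences were 0.35 (SE 0.35, adjusted p = 0.440) for Mt1 and 0.41 (SE 0.38, adjusted p = 0.398) for Mt2 on the log2 scale. Those values depend on the scaling. They were 1.04 (adjusted p = 0.0170) for Mt1 and 1.10 (adjusted p = 0.0197) for Mt2 with library size alone. Both were past the threshold on the TPM scale as well, at 1.05 (adjusted p = 0.00679) and 1.15 (adjusted p = 0.00610).

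The spread between mice was shared by the pair. The mouse with the highest Mt1 also had the highest Mt2 in all 4 groups, and in the severe group its levels were 113 and 89.4 CPM, against 45.6 and 39.1 CPM in the lowest mouse. Over the 12 mice the log2 CPM of Mt1 and Mt2 had a Pearson r of 0.995. A ratio of both genes within a mouse does not depend on how the library is scaled. The TPM ratio of Mt2 to Mt1 was 0.246, 0.246 and 0.333 in the controls and 0.290, 0.305 and 0.404 in FLExD/+, and rose to 0.720, 0.721 and 0.834 in moderate and 0.787, 0.794 and 0.847 in severe mice. The 2 models did not overlap the controls (exact permutation test, two-sided p = 0.1 for each, the smallest that 3 mice against 3 allow, before correction for 28 such tests), so Mt2 gained on Mt1 in both.

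Mt3, best known from brain, and Mt4, known from stratified epithelia, lie next to them, with starts 26475 and 41885 bases from that of Mt1, against 6418 bases for Mt2. Mt3 had 3, 3 and 5 counts in controls and 3, 6 and 10 counts in FLExD/+, and 55, 74 and 76 counts in moderate and 54, 60 and 103 counts in severe mice. It was higher in moderate (log2 3.61, SE 0.42, adjusted p = 6.98e-06) and in severe mice (log2 3.21, SE 0.43, adjusted p = 1.03e-05), on control counts close to the detection floor. Mt4, with no more than 2 counts per mouse, fell under the filter. The TPM ratio of Mt3 to Mt1 was 0.0342 ± 0.0149 (SD, n = 3) in controls, 0.0377 ± 0.00890 in moderate and 0.0217 ± 0.00372 in severe mice, and only moderate and severe did not overlap (exact permutation test, two-sided p = 0.1).

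In TPM, Mt1 and Mt2 together came to 17.4 ± 3.38 (SD, n = 3) in controls, 24.3 ± 6.71 in FLExD/+, 303 ± 117 in moderate and 661 ± 298 in severe mice. Per length, Mt1 was number 4 of the members in controls at 13.7 ± 3.02 TPM and number 1 in both models, at 171 ± 59.1 TPM in moderate and 367 ± 169 TPM in severe mice, where its values overlapped those of Mt2. The controls were led by Sod2 at 127 ± 12.9 TPM and Gpx1 at 37.4 ± 4.44 TPM, followed by Txnrd1 at 20.7 ± 1.86 TPM, and these 3 did not overlap each other. Hmox1 was the lowest of the 10 in controls at 2.28 ± 0.0907 TPM and was number 7 in severe mice at 32.2 ± 4.24 TPM.

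Hmox1 was the only member called higher in severe than in moderate mice with TMM factors, against 7 members with library size alone and 6 in TPM. With those 2 scalings, 10471 and 8709 of all 16679 genes were called in either direction in this comparison. Hmox1 encodes the inducible heme oxygenase, which breaks heme down to biliverdin, carbon monoxide and iron (ENSMUSG00000005413, chr8:75093621-75100589, plus strand). The controls measured 2.46, 2.54 and 2.56 CPM, FLExD/+ 2.02, 2.13 and 2.17 CPM, moderate mice 8.14, 8.17 and 8.88 CPM and severe mice 16.3, 17.9 and 17.97 CPM. None of the 4 groups overlapped another. The difference from controls was 3.33-fold in moderate (log2 1.74, SE 0.11, adjusted p = 2.23e-08) and 6.90-fold in severe mice (log2 2.79, SE 0.11, adjusted p = 8.02e-11), and severe mice were 2.07-fold above moderate ones (log2 1.05, SE 0.09, adjusted p = 1.85e-06). The lower values in FLExD/+ did not pass the test (log2 -0.26, SE 0.13, adjusted p = 1.00).

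Macrophages express Hmox1 strongly, and their markers moved with it. The 8 macrophage markers (Adgre1, Cd68, Csf1r, Itgam, C1qa, C1qb, Lyz2 and Mrc1) were all called higher in both models and again between them. Their summed level was 103 to 126 CPM in controls, 110 to 118 CPM in FLExD/+, 525 to 676 CPM in moderate and 1212 to 1320 CPM in severe mice, and none of the 8 was at or under the detection floor in any group. Their part in the Hmox1 difference was not tested.

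Nqo1 had another profile. It encodes a quinone reductase and is among the most often used NRF2 readouts (ENSMUSG00000003849, chr8:107388225-107403206, minus strand). It measured 10.3, 14.2 and 15.02 CPM in controls, 14.3, 17.0 and 17.5 CPM in FLExD/+, 44.3, 49.1 and 55.7 CPM in moderate and 15.9, 22.4 and 27.5 CPM in severe mice. The moderate mice stood above all others, and the severe ones lay above the controls but overlapped FLExD/+. Nqo1 was 3.78-fold higher in moderate (log2 1.92, SE 0.19, adjusted p = 2.83e-06) and 1.67-fold higher in severe mice than in controls (log2 0.74, SE 0.19, adjusted p = 0.00336), and from moderate to severe it fell by 1.18 on the log2 scale (SE 0.18, adjusted p = 1.60e-04). The lower level in severe than in moderate mice had the same direction with library size alone (log2 -0.49, adjusted p = 0.0151) and in TPM (log2 -0.47, adjusted p = 0.0211), though its size then fell short of the fold threshold and the TPM values of the 2 models overlapped.

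Srxn1, the sulfiredoxin that restores over-oxidized peroxiredoxins, followed Nqo1 (ENSMUSG00000032802, chr2:152105516-152111376, plus strand). Its values were 13.6, 16.8 and 17.1 CPM in controls, 16.8, 18.2 and 19.8 CPM in FLExD/+, 27.7, 27.9 and 31.5 CPM in moderate and 12.3, 14.1 and 18.3 CPM in severe mice. Moderate mice lay above every other mouse, while severe mice overlapped the controls. Srxn1 was 1.83-fold higher in moderate mice than in controls (log2 0.88, SE 0.14, adjusted p = 9.53e-05), differed by -0.09 in severe mice (SE 0.14, adjusted p = 0.584) and was 1.95-fold lower in severe than in moderate mice (log2 -0.96, SE 0.13, adjusted p = 5.30e-05). The severe value turns with the scaling, to 1.21 with library size alone and 0.99 in TPM, and the severe versus moderate difference shrinks to -0.27 (adjusted p = 0.0640) and -0.18 (adjusted p = 0.267).

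**Figure D2:**
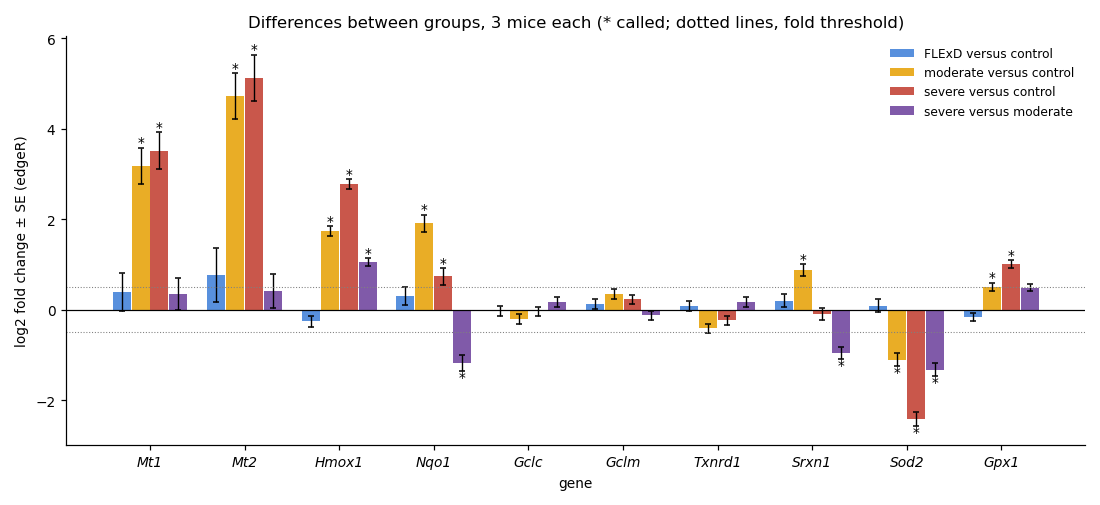
Log2 fold change of each of the 10 genes (vertical axis; bars, edgeR estimate; error bars, SE; 3 mice a group) in the 4 comparisons, with an asterisk where the gene was called and dotted lines at the fold threshold of 0.5. Mt2 reaches 5.13 in severe versus control, Sod2 falls to -2.42, and the bars of severe versus moderate point up for Hmox1 (1.05) and down for Nqo1 (-1.18), Srxn1 (-0.96) and Sod2 (-1.32).

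The other 3 NRF2 readouts were not called in any comparison. Gclc and Gclm encode the catalytic and modifier subunits of glutamate-cysteine ligase, the rate-limiting step of glutathione synthesis. Gclc (ENSMUSG00000032350, chr9:77754535-77794485, plus strand) ranged from 10.5 to 11.3 CPM in controls, 9.79 to 12.1 CPM in FLExD/+, 8.75 to 10.3 CPM in moderate and 10.5 to 11.1 CPM in severe mice. Its log2 fold changes were -0.21 (SE 0.10, adjusted p = 0.110) in moderate and -0.03 (SE 0.10, adjusted p = 0.798) in severe versus control. Gclm (ENSMUSG00000028124, chr3:122245557-122270732, plus strand) ranged from 6.63 to 7.99 CPM in controls, 7.54 to 9.04 CPM in FLExD/+, 9.30 to 9.99 CPM in moderate and 8.60 to 9.03 CPM in severe mice. The models did not overlap the controls, but at 0.35 (SE 0.11, adjusted p = 0.0132) in moderate and 0.23 (SE 0.11, adjusted p = 0.0664) in severe mice the log2 differences stayed under the fold threshold. Gclm counts were not whole numbers in any mouse, which means that reads shared with other loci were divided, and the pseudogene Gm6061 and the transcript Gm17494 overlap it.

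Txnrd1, the cytosolic thioredoxin reductase (ENSMUSG00000020250, chr10:82833951-82897712, plus strand), ranged from 57.7 to 71.9 CPM in controls, 59.2 to 76.4 CPM in FLExD/+, 48.3 to 51.9 CPM in moderate and 55.5 to 56.7 CPM in severe mice. Both models lay below the controls, by 0.41 in moderate (SE 0.10, adjusted p = 0.00432) and 0.23 in severe mice (SE 0.10, adjusted p = 0.0568) on the log2 scale, short of the fold threshold. Eid3, Gm38560 and Gm47073 overlap it. Leaving out control mouse 1349 brought the moderate difference to -0.53 (adjusted p = 8.91e-04), past the threshold.

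For these 3 genes the scaling decides the direction or the call in severe versus control. With library size alone the log2 differences were 1.27 for Gclc, 1.53 for Gclm and 1.07 for Txnrd1, and in TPM 0.97, 1.30 and 0.92, each with an adjusted p under 0.05. The median log2 difference of all genes was 1.39 with library size alone and 0.79 in TPM. Ratios within a mouse are free of it. The TPM ratio of Srxn1 to Txnrd1 was 0.365 ± 0.0130 (SD, n = 3) in controls, 0.417 ± 0.0309 in FLExD/+, 0.855 ± 0.0413 in moderate and 0.405 ± 0.0761 in severe mice, so the moderate mice stood apart from the other groups (exact permutation test, two-sided p = 0.1 against controls and against severe mice), and severe mice overlapped the controls (p = 0.6 in the same exact test). Hmox1 to Nqo1 gave 0.215 ± 0.0468 in controls, 0.147 ± 0.0167 in FLExD/+, 0.170 ± 0.0236 in moderate and 0.806 ± 0.246 in severe mice, with the severe mice above all others (exact permutation test, two-sided p = 0.1 against controls and against moderate mice) and moderate mice overlapping the controls (p = 0.2 in the same exact test). Gclm to Gclc rose from 1.00 ± 0.0913 in controls to 1.28 ± 0.0859 in FLExD/+, 1.62 ± 0.147 in moderate and 1.29 ± 0.166 in severe mice. In TPM each of these 3 groups lay above the controls without overlap (exact permutation test, two-sided p = 0.1 for each). For FLExD/+ this did not hold in counts. There FLExD/+ mouse 1367, with 182.38 counts of Gclm and 245 of Gclc, had a lower ratio than control mouse 1246, with 163.95 and 217. In TPM, FLExD/+ mice did not overlap the controls for Srxn1 to Txnrd1 and Hmox1 to Nqo1 either (exact permutation test, two-sided p = 0.1 for each). Ratios without overlap thus also arose in the comparison in which no member was called. The pairs were chosen with their values known, so the ratios describe these mice.

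**Figure D3:**
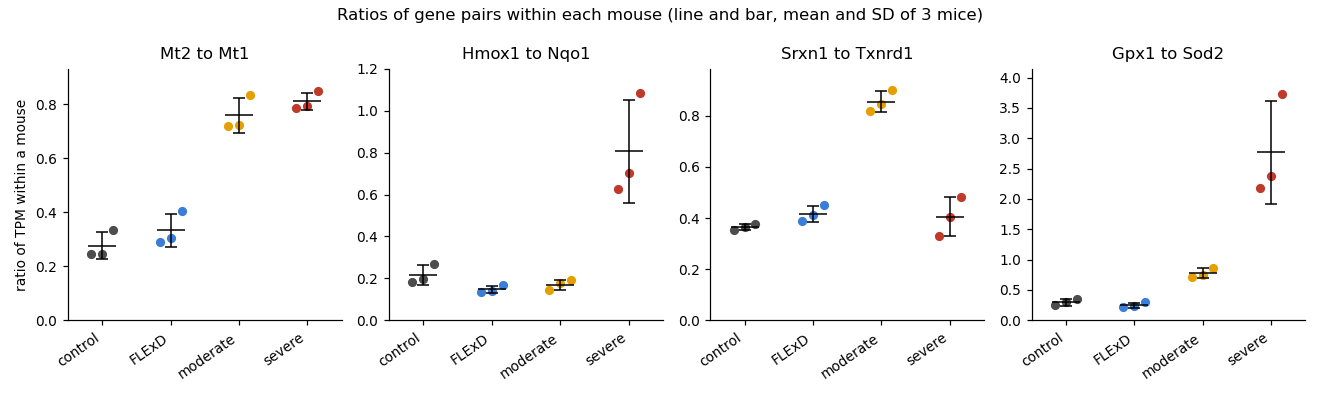
TPM ratio of 4 gene pairs within each mouse (vertical axes, from 0; points, mice in order of value within a group; line and bar, mean and SD of 3 mice) in the 4 groups. Mt2 to Mt1 is high in both models, Hmox1 to Nqo1 is high in severe mice alone, Srxn1 to Txnrd1 is high in moderate mice alone, and Gpx1 to Sod2 climbs from 0.298 in controls to 0.774 in moderate and 2.77 in severe mice.

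Sod2 was the only member called lower than in controls. It encodes the manganese superoxide dismutase of the mitochondrial matrix (ENSMUSG00000006818, chr17:13006846-13040063, plus strand). It measured 274, 298 and 340 CPM in controls, 286, 328 and 355 CPM in FLExD/+, 134, 146 and 146 CPM in moderate and 43.0, 62.7 and 64.9 CPM in severe mice. Both models lay below all other mice, the severe below the moderate. Sod2 fell by 1.10 on the log2 scale in moderate (SE 0.15, adjusted p = 2.27e-05) and by 2.42 in severe versus control (SE 0.15, adjusted p = 4.96e-09), which is 5.35-fold lower, and by 1.32 from moderate to severe (SE 0.15, adjusted p = 9.99e-06). Its direction held under library size alone (log2 -0.49 in moderate and -1.12 in severe versus control) and in TPM (-0.39 and -0.97), although the moderate difference was then under the fold threshold. Sod2 counts were not whole in any mouse, so shared reads were divided here too. The 6 muscle fiber markers, all called lower in severe versus control with a median log2 fold change of -3.51, moved the same way, and their part in the Sod2 difference was not tested.

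Gpx1, the cytosolic selenoprotein that reduces hydrogen peroxide with glutathione (ENSMUSG00000063856, chr9:108338903-108340343, plus strand), went the other way. It measured 35.5, 36.3 and 42.0 CPM in controls, 33.3, 33.9 and 35.3 CPM in FLExD/+, 50.5, 53.0 and 58.9 CPM in moderate and 72.8, 75.3 and 80.4 CPM in severe mice. The models overlapped neither each other nor the controls. Gpx1 was 1.43-fold higher in moderate (log2 0.51, SE 0.09, adjusted p = 2.10e-04) and 2.01-fold higher in severe mice (log2 1.01, SE 0.09, adjusted p = 1.37e-07). Between severe and moderate it differed by 0.49 on the log2 scale (SE 0.09, adjusted p = 3.43e-04), just under the fold threshold, and the moderate difference was just over it. Leaving out control mouse 1127 or 1246 or moderate mouse 1236 put the moderate value at 0.45, 0.44 and 0.45, and with size factors by median of ratios and in DESeq2 it was 0.49, so that 5 rather than 6 members were then higher in moderate mice. Leaving out moderate mouse 1236, severe mouse 1066 or severe mouse 1079 put the severe versus moderate value at 0.55, 0.50 and 0.52, past the threshold.

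The TPM ratio of Gpx1 to Sod2 within a mouse was 0.298 ± 0.0553 (SD, n = 3) in controls, 0.247 ± 0.0404 in FLExD/+, 0.774 ± 0.0805 in moderate and 2.77 ± 0.847 in severe mice, so Gpx1 passed Sod2 in the severe mice alone. The models overlapped neither the controls nor each other (exact permutation test, two-sided p = 0.1 for each of the 3 comparisons). The 8 members other than metallothioneins together came to 213 ± 11.99 TPM in controls, 222 ± 7.30 TPM in FLExD/+, 288 ± 12.98 TPM in moderate and 386 ± 38.9 TPM in severe mice. In TPM the median log2 fold change of all genes was 0.29 in moderate and 0.79 in severe versus control. The sum is not adjusted for that shift, so it is not read as a gain over other genes.

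**Figure D4:**
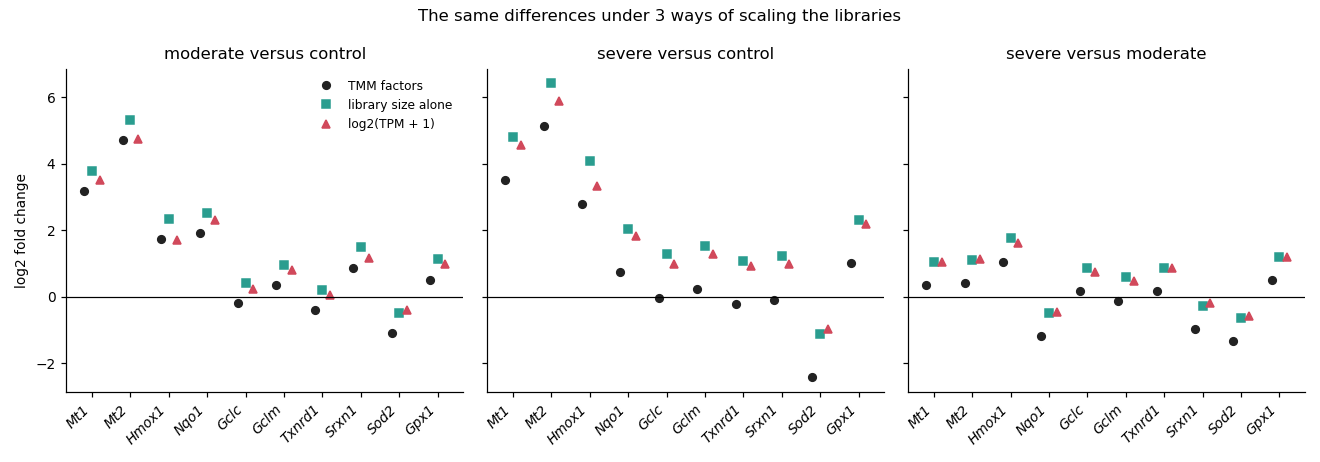
Log2 fold change of the 10 genes (vertical axis) for each model against the controls and for the severe against the moderate model, estimated with TMM factors (circles), with library size alone (squares) and on log2(TPM + 1) (triangles). The points of Gclc, Txnrd1 and Srxn1 in severe versus control move from -0.03, -0.23 and -0.09 to 1.27, 1.07 and 1.21 with library size alone, while Mt1, Mt2, Hmox1, Nqo1 and Gpx1 stay above 0 and Sod2 stays below 0 in both comparisons with controls.

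Around the 10 members, 100 genes in 11 lists were followed, of which 97 were tested and a few, such as Gsta4 and Ftl1, stand in more than 1 list. In moderate versus control 33 were higher and 21 lower, beside 24.4% and 17.0% of all genes tested. In severe versus control 36 were higher and 36 lower, beside 32.9% and 27.9%. These shares are the background for the counts of each list below, and the distance of a list from them was not tested. With library size alone the severe split was 66 higher and 9 lower, and in TPM 63 and 9, so what follows is relative to the bulk of genes. With those scalings 13650 and 11719 of all 16679 genes were called in either direction in severe versus control. Of the called genes of these lists and the marker lists, 63 of 74 in moderate versus control and 94 of 102 in severe versus control kept their call in every fit that left out a mouse. No listed gene was called in FLExD/+.

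The gene of NRF2 itself, Nfe2l2, averaged 28.5 ± 6.29 CPM in the 3 controls (SD), 26.1 ± 0.875 CPM in moderate and 29.4 ± 0.805 CPM in severe mice, with log2 differences of -0.12 (SE 0.12, adjusted p = 0.407) and 0.05 (SE 0.12, adjusted p = 0.736). Of the 9 NRF2 regulators, 3 were lower in moderate and 6 in severe versus control, and none was higher. Those lower in severe mice were Nfe2l1, a relative of NRF2 (log2 -1.86, SE 0.12), Cul3 (-1.41, SE 0.12), the autophagy receptor Sqstm1 (-1.33, SE 0.12), Keap1 (-1.19, SE 0.10) and the small MAF genes Mafk (-1.06, SE 0.13) and Mafg (-0.71, SE 0.09). Bach1, the repressor of Hmox1, differed by 0.31 (SE 0.09) in severe versus control, under the fold threshold. With library size alone 4 of the 9 were higher and 1, Nfe2l1, lower in severe mice, and Keap1 and Cul3 differed by 0.10 and -0.11.

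Of 15 further NRF2 targets, 4 were higher and 3 lower in moderate and 6 higher and 6 lower in severe versus control, with a median of -0.15 in severe mice beside 0.08 for all genes. The largest rises in severe mice were Akr1b8, an aldo-keto reductase (log2 4.04, SE 0.19, adjusted p = 3.04e-10), the ferritin light chain Ftl1 (1.88, SE 0.10) and Ugdh (1.27, SE 0.13). The largest falls were the glutathione transferase Gsta4 (-3.44, SE 0.27), malic enzyme Me1 (-2.73, SE 0.13) and the aldehyde oxidase Aox1 (-1.68, SE 0.14). These further targets went in both directions. Of the 6 NRF2 readouts among the members, 3 were called higher in moderate and 2 in severe versus control, and 0 lower. Txnrd1 lay below the controls in both models, short of the fold threshold. A difference between these 2 sets was not tested. The split of the 15 in severe mice was 9 higher and 2 lower with library size alone.

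The glutathione list held 20 tested genes, of which 3 were higher and 7 lower in moderate and 4 higher and 11 lower in severe versus control. Chac1, which degrades glutathione, fell by 4.33 on the log2 scale in severe mice (SE 0.29), and the transferases Gsta4 and Gstm2 by 3.44 and 2.73, while the endoplasmic reticulum peroxidase Gpx8 (1.51, SE 0.16), the transpeptidase relative Ggt5 (1.34, SE 0.17) and the amino acid transporter subunit Slc3a2 (0.99, SE 0.08) were higher. The split of this list depends on the scaling. In severe versus control it was 11 higher and 4 lower with library size alone, and 10 and 4 in TPM. Of 11 thioredoxin and peroxiredoxin genes, 3 were higher and 3 lower in moderate and 2 higher and 5 lower in severe mice. Prdx4 of the endoplasmic reticulum (2.18, SE 0.15) and cytosolic Txn1 (1.24, SE 0.09) were higher, and mitochondrial Prdx3 (-1.90, SE 0.11) and Txn2 (-1.31, SE 0.11) and the thioredoxin inhibitor Txnip (-1.85, SE 0.16) were lower. With library size alone, 7 of these 11 genes were higher and 2 lower in severe mice. Among the remaining dismutases and catalase, extracellular Sod3 was higher in severe mice (1.60, SE 0.15), and Cat (-1.19, SE 0.22) and Sod1 (-0.54, SE 0.08) were lower, Sod1 only just past the threshold and 0.76 higher with library size alone. The fall of Cat depends on the scaling too. It averaged 23.2 ± 6.16 TPM (SD, n = 3) in controls and 23.2 ± 0.594 TPM in severe mice. With library size alone and in TPM, 3 of the 4 genes tested in this list were higher and 0 lower in severe mice. Of 8 genes for NADPH supply, 2 were higher and 2 lower in both models, led by Pgd (1.93, SE 0.16) and G6pdx (1.36, SE 0.13) of the pentose phosphate pathway upward in severe mice.

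The 8 NADPH oxidase and other oxidant source genes were all higher in both models and again in severe over moderate, though Xdh, xanthine dehydrogenase, kept its call in 4 of the 6 fits without a mouse in moderate versus control and in 3 of 6 in severe versus moderate. Their median log2 fold change was 2.42 in moderate and 3.39 in severe versus control, and the direction held for all 8 with library size alone and in TPM. The phagocyte subunits Ncf1 (4.16, SE 0.15), Cybb (3.85, SE 0.16) and Ncf4 (3.70, SE 0.26) rose the most in severe mice. These 3 are genes of myeloid cells, and the macrophage markers given with Hmox1 moved with them. The neutrophil markers summed to 2.55 to 2.76 CPM in controls, 3.81 to 5.68 CPM in moderate and 9.01 to 10.5 CPM in severe mice. Much of this was Csf3r, at a mean of 0.386 CPM in controls and 5.69 CPM in severe mice. Of the 4 tested, 1 was called higher in moderate and 3 in severe mice, S100a9 in neither, and Ly6g had 0 counts throughout. The part of these cells in the oxidant source genes was not tested.

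**Figure D5:**
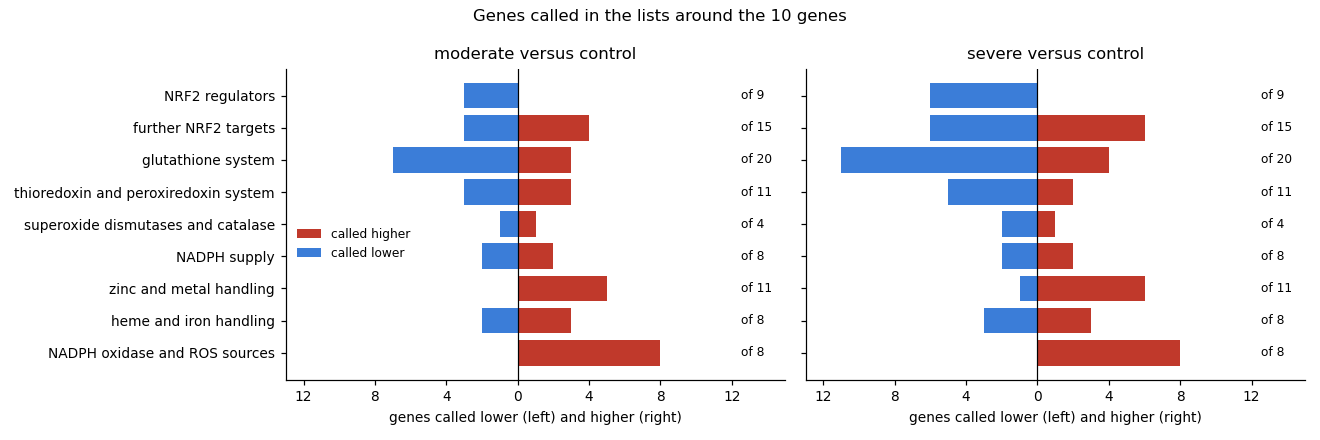
Number of genes called higher (right, red) and lower (left, blue) in 9 lists around the 10 genes, in moderate and in severe versus control, with the number tested at the right edge. With TMM factors the oxidant sources are called higher throughout (8 of 8). The NRF2 regulators are then only lower (6 of 9 in severe mice), and the glutathione list mostly lower (11 of 20 in severe mice). With library size alone the regulators had 4 higher and 1 lower in severe mice, and the glutathione list 11 higher and 4 lower. Of all genes tested, 32.9% were called higher and 27.9% lower in severe versus control.

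Zinc and metal handling genes were read beside the metallothioneins. Of 11 tested, 5 were higher and 0 lower in moderate and 6 higher and 1 lower in severe versus control, with Mt3 among those higher in both. The others higher in severe mice were the zinc importers Slc39a6 (log2 2.69, SE 0.14, adjusted p = 8.73e-10), Slc39a14 (1.85, SE 0.16), Slc39a8 (0.90, SE 0.31) and Slc39a1 (0.60, SE 0.07) and the secretory pathway transporter Slc30a7 (1.36, SE 0.10). Slc39a8 was called in 3 of the 6 fits that left out a mouse. Slc30a1, the zinc exporter and with the metallothioneins a classical MTF1 target, was 12.6 ± 3.42 CPM in controls, 13.2 ± 0.759 CPM in moderate and 14.5 ± 1.37 CPM in severe mice (log2 0.19, SE 0.16, adjusted p = 0.290 in severe versus control). Mtf1 itself fell by 0.51 on the log2 scale in severe mice (SE 0.08), at the threshold, and both Mtf1 (0.80) and Slc30a1 (1.503) were higher with library size alone.

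Glucocorticoids and STAT3, named above as also raising metallothionein genes, were read as lists too. Of 6 glucocorticoid receptor targets, 2 were lower in moderate and 4 in severe versus control and none was higher, with Klf9 falling by 2.69 on the log2 scale in severe mice (SE 0.15). This depends on the scaling, since library size alone and TPM each gave 2 higher and 1 lower in severe and 1 and 1 in moderate mice. Sgk1 in moderate mice kept its call in 2 of the 6 fits that left out a mouse, and Tsc22d3 in severe mice in 4 of 6. All 5 genes of the STAT3 list, which holds Stat3 and Osmr too, were higher in both models, among them Bcl3 (2.91, SE 0.36), Socs3 (2.12, SE 0.30) and Junb (1.961, SE 0.24) in severe versus control, also with library size alone and in TPM. Among 8 tested heme and iron genes, 3 were higher and 3 lower in severe versus control: Cd163, the macrophage receptor for haptoglobin-bound hemoglobin (2.11, SE 0.23), Ftl1 (1.88) and the iron exporter Slc40a1 (1.15, SE 0.12) rose, and the transferrin receptor Tfrc (-1.69, SE 0.13), Alas1 (-1.56, SE 0.15) and the heme transporter Slc48a1 (-0.89, SE 0.09) fell. With library size alone and in TPM, 5 of the 8 heme and iron genes were higher and 0 lower in severe versus control. All 5 erythroid markers were called lower in severe versus control with TMM factors (median log2 -3.02), with a summed level of 386 to 463 CPM in controls, 186 to 359 CPM in moderate and 34.0 to 84.3 CPM in severe mice and none at the detection floor. The fibroblast markers summed to 625 to 1542 CPM in controls, 2301 to 2423 CPM in moderate and 3823 to 4945 CPM in severe mice (3 of 5 called higher and 1 lower in severe mice), and the endothelial markers to 138 to 155, 87.9 to 115 and 60.4 to 71.7 CPM (4 of 4 called lower in severe mice, but 1 higher and 1 lower with library size alone and in TPM). The part of these cells in the differences of the members and of the heme and iron genes was not tested. Hmox2, the constitutive heme oxygenase, was 23.4 ± 1.396 CPM in controls and 23.6 ± 1.02 CPM in severe mice (log2 0.01, SE 0.08, adjusted p = 0.936).

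The genes whose log2 CPM followed a member most closely over the 12 mice were read from 13330 genes with a mean of at least 1 CPM, as a description. Mt1 and Mt2 were each other's nearest gene, and Unc13b, a synaptic vesicle priming factor, was the next for both (r = 0.988 with Mt1 and 0.987 with Mt2), at 5.87 CPM in controls, 18.4 CPM in moderate and 19.5 CPM in severe mice. Gm5903, Eea1 and Ube2z followed for Mt1, and Atg3, Rnd3 and Rasal2 for Mt2. Hmox1 was nearest to D17H6S56E-5 (r = 0.998), Dusp11, Stab1, Dock10 and Hk1, of which Stab1 is a scavenger receptor of macrophages and endothelium. Nqo1 was nearest to Meis1 (r = 0.978), Clasp2, Cmtm4, Aspa and Palmd, which peaked in moderate mice as it did, Palmd at 22.0 CPM in controls, 107 CPM in moderate and 40.5 CPM in severe mice. For Hmox1 the hundredth nearest gene still had an r of 0.991, so with 4 groups over 12 mice many genes share such a profile. Within the group, Hmox1 followed Gpx1 (r = 0.980), Gpx1 ran opposite to Sod2 (r = -0.985), and Nqo1 followed Srxn1 (r = 0.848).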

How the data were processed

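Poly(A) RNA-seq of gastrocnemius from 12 mice was analysed from the deposited tables of counts and of TPM for 37748 genes. Per the submitters' processing notes, the authors used RSEM 1.2.4, Bowtie and TopHat2 2.0.8b with mm10. Their methods state that RSEM, calling Bowtie, mapped reads to merged UCSC, Ensembl and MISO annotations and that TopHat took the reads left over; the strand setting is not given in the sources used here. The deposited expected counts are the authors' RSEM estimates, in which reads shared between loci are divided (31.8 to 36.2% of values were not whole), and they were rounded to whole numbers for testing. The deposited TPM values are per transcript length and sum to 999994 to 1000004 in each mouse. Library totals were 23796902 to 29136403 counts, so that 3 counts, taken as the floor, equal 0.0676 to 0.155 CPM. This covers counting error only.

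The members and the lists around them, and the pairs used for ratios, were chosen with earlier results of these data known. Groups came from the labels, which number individual mice. All 4 groups entered 1 fit of edgeR 4.0.16 (R 4.3.3; filterByExpr, TMM factors, robust quasi-likelihood test), with Benjamini-Hochberg adjustment over 16679 genes, and a gene was called at adjusted p under 0.05 and a log2 fold change of at least 0.5 in size. SE is the log2 fold change divided by the square root of F. The text names all 10 members, from each list up to 3 called genes with the largest change in each direction in severe or moderate versus control, any NRF2 regulator or zinc gene, and the 5 genes most like Mt1, Mt2, Hmox1 and Nqo1. Hmox2, Stat3 and Osmr fall outside this rule and were named after their values were seen. Ratios were compared in log2 by exact two-sided permutation tests (scipy 1.17.1), which cannot go below 0.1 with 3 mice a group. Alternatives were library size alone, factors by median of ratios, the Wald test of DESeq2 1.42.0, limma 3.58.1 on log2(TPM + 1), other filters (none, or at least 10 counts in every mouse), only the 2 groups compared in the fit, other fold thresholds (none or 1) and each mouse left out. On the log2(TPM + 1) scale the changes of low genes are understated. Positions are from GENCODE M21 (GRCm38), which holds 35982 of the 37748 identifiers, and promoter sequences are from RefSeq. Tables used Python 3.11.15 and pandas 2.3.3, and figures matplotlib 3.10.9.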

Additional observations from a re-analysis of the deposited data

Results flagged for a closer look

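The moderate and severe models share the same controls and genotype but differ in the tamoxifen given. Their difference was tested directly as severe versus moderate in edgeR's quasi-likelihood fit, which cannot separate the transgene from the drug. This difference passed for 4 members: Hmox1 was higher in severe mice (log2 1.05), and Nqo1 (-1.18), Srxn1 (-0.96) and Sod2 (-1.32) were lower. With library size alone and in TPM, the directions of all 4 held, but Nqo1 and Srxn1 no longer passed. Single mice that stand apart were not looked for by a test, since groups of 3 are too small.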

How the results depend on the processing

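The scaling of the libraries was the choice that mattered most. With library size alone, 9 members were higher in severe versus control in place of 5, and 0 were lower in moderate versus control in place of 1. Severe versus moderate then gave 7 higher and 1 lower in place of 1 and 3. On TPM, limma gave 9, 0, 6 and 1. Of all 16679 genes, 13650 were called in either direction in severe versus control with library size alone, 11719 in TPM and 10128 with TMM factors. In severe versus moderate these were 10471, 8709 and 6082, and in moderate versus control 9516, 6027 and 6902. Reversed in severe versus control were Gclc (1.27 with library size alone, 0.97 in TPM), Txnrd1 (1.07 and 0.92) and Srxn1 (1.21 and 0.99), and in severe versus moderate Gclm (0.58 with library size alone). With no fold threshold, 7 members were higher and 2 lower in moderate versus control and 2 were higher in severe versus moderate. A threshold of 1 left 4 higher in moderate and 4 in severe versus control (Nqo1 lost in severe) and 2 lower in severe versus moderate. Median-of-ratios factors and DESeq2 gave 5 higher in moderate versus control (Gpx1 lost); no filter, at least 10 counts in every mouse and a fit of only the 2 groups also gave 2 higher in severe versus moderate. Leaving out each mouse gave 1 to 2 lower in moderate versus control (2, with Txnrd1, without control mouse 1349), 5 to 6 higher there, and 1 to 2 higher in severe versus moderate (2, with Gpx1, without moderate mouse 1236 or severe mouse 1066 or 1079). Of 520 member results under alternatives, 481 kept direction and call, 21 passed newly, 11 no longer passed and 7 reversed. Mt1, Mt2, Hmox1 and Nqo1 stayed called higher than control in both models under all alternatives that keep the fold threshold of 0.5, and no member was called in FLExD/+ under any alternative. The causes of these shifts were not tested. No paired analysis was possible because no replicate number is shared between groups.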

Other observations

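Genes outside the 10 members, chosen after their values were seen, varied widely between mice without recombination. Nnt, the mitochondrial transhydrogenase that supplies NADPH, measured 25.2, 29.7 and 146 CPM in controls and 72.3, 143 and 144 CPM in FLExD/+ mice, against 49.96 to 71.1 CPM in moderate and 30.8 to 39.6 CPM in severe mice. Idh2, a mitochondrial NADPH source, measured 134, 198 and 385 CPM in controls and 157, 394 and 416 CPM in FLExD/+ mice, and the highest control was mouse 1246 for both genes. Chac1, which degrades glutathione, measured 5.45, 11.8 and 12.3 CPM in controls and 18.4, 19.2 and 19.96 CPM in FLExD/+ mice, a difference that did not pass edgeR's test (log2 0.97, adjusted p = 1.00), and 0.386 to 0.541 CPM in severe mice.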
